A study of Rattus norvegicus with 13 samples.

Results

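A set of 7 mature miRNAs of the rat kidney was followed, of 460 rat mature miRNAs in the deposited count table, chosen by name as paralogues of the miR-17-92 cluster. They are rno-miR-106b-5p, rno-miR-93-5p, rno-miR-93-3p and rno-miR-25-3p of the miR-106b-25 cluster, rno-miR-20b-5p and rno-miR-363-3p of the X-linked miR-106a-363 cluster, and rno-miR-92b-3p, which has a gene of its own. All rats were female WAG/RijCmcr, an inbred Wistar strain, aged 11 to 12 weeks and weighing about 155 g at the start, and all kidneys were taken at 35 days. Control rats (n = 4) were age-matched and received 0 Gy and no lisinopril. For the irradiated rats (n = 4) the dose was 13 Gy, given as X-rays (320 kVp, 1.75 Gy per minute) with 1 hind limb kept out of the beam to spare marrow, and they had no lisinopril. The third group (n = 5) received the same irradiation and then the angiotensin converting enzyme inhibitor lisinopril at about 24 mg per square metre per day in the drinking water from day 7; its libraries are called lisinopril libraries below. For irradiated rats the labels also list saline on days 3 to 7 and enrofloxacin, an antibiotic, up to day 14 as supportive care, without saying whether control rats received them. Kidney RNA comes from many cell types, so fewer cells of a type and less miRNA per cell cannot be told apart.

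The clusters named here arose from duplications of an ancestral miR-17-92 cluster. miR-106b, miR-93 and miR-25 are cut from an intron of Mcm7, a gene for a subunit of the replicative helicase, and are made with it in proliferating cells under E2F control. A mature miRNA pairs with messenger RNAs mainly through its seed, bases 2 to 8, so miRNAs of a common seed share many targets. For the seed of miR-93-5p these include the cell cycle inhibitor Cdkn1a, and for the seed of miR-25-3p the apoptosis gene Bcl2l11. From each hairpin a guide arm is usually kept and the other arm, the passenger, is mostly degraded.

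The mature sequences are shown because they sort the 7 miRNAs into 2 seed groups and a lone passenger arm. They are from RefSeq (GRCr8), written 5′ to 3′ with the seed in capitals.
miR-106b-5p: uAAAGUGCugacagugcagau
miR-93-5p: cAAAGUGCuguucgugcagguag
miR-20b-5p: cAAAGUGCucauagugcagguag
miR-25-3p: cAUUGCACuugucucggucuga
miR-363-3p: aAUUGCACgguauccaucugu
miR-92b-3p: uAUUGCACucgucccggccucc
miR-93-3p: aCUGCUGAgcuagcacuucccga
Their closest measured relatives outside the 7 carry the same seeds.
miR-17-5p: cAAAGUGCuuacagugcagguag
miR-20a-5p: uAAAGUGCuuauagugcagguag
miR-92a-3p: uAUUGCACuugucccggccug

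In RefSeq (GRCr8), all 7 lie on the minus strand. miR-106b-5p is at chr12:22157103-22157123, miR-93-5p at chr12:22156894-22156916, miR-93-3p at chr12:22156856-22156878 and miR-25-3p at chr12:22156652-22156673, all inside Mcm7. miR-20b-5p is at chrX:137343239-137343261 and miR-363-3p at chrX:137342788-137342808, and miR-92b-3p is at chr2:176931663-176931684; these 3 lie inside no other annotated gene. The reads themselves were aligned by the authors to another build, rn4, so these positions locate the genes and not the reads. Seed mates can be nearly alike beyond the seed. Counting positions from 1 at the 5′ end and giving the base of the first-named miRNA first, miR-20b-5p differs from miR-17-5p by C10U and U12C and from miR-20a-5p by C1U and C10U. Over the first 21 bases miR-92b-3p differs from miR-92a-3p by C10U and C21G. The sources used here do not give how reads matching more than a single miRNA were assigned, so the values of miR-20b-5p and miR-92b-3p are uncertain to that extent. miR-17-5p and miR-92a-3p are each annotated in both the chromosome 15 and the X-linked cluster, so their counts cannot be assigned to either.

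Rat mature counts per library ranged from 1194175, in control library 2, to 11095939. Levels are in CPM, counts scaled to a common library size, with library sizes adjusted by TMM, which balances the bulk of the miRNAs between libraries. The level worth 3 counts, taken as the limit that a count of 0 allows, was 3.19 CPM in control library 2 and 0.289 to 0.561 CPM elsewhere, for counting error only. Differences were tested with edgeR's quasi-likelihood test over 419 miRNAs, and a miRNA was called at a Benjamini-Hochberg adjusted p under 0.05. All 7 miRNAs passed the filter on low counts and were tested. miR-20b-5p would not have passed without the irradiated libraries, where its mean level was highest. Its difference from the controls is therefore no independent support for a rise.

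By edgeR's test, 0 of the 7 miRNAs were called in irradiated against control kidneys, 0 in lisinopril-treated against irradiated kidneys and 0 in lisinopril-treated irradiated against control kidneys, where 1.67%, 0% and 6.21% of all 419 were called. The 3 guide strands of the Mcm7 cluster stayed within a 1.46-fold range over all 13 kidneys. The differences with the smallest p belonged to miR-92b-3p and miR-363-3p in lisinopril-treated irradiated kidneys, where all 5 rats lay above all 4 controls, as they did for 5.97% of all 419. In control kidneys the order of read levels was miR-25-3p at 1578 ± 239 CPM (SD, n = 4), miR-93-5p at 726 ± 75.3, miR-92b-3p at 99.0 ± 16.6, miR-106b-5p at 88.7 ± 5.90, miR-363-3p at 21.7 ± 0.461, miR-93-3p at 5.25 ± 1.00 and miR-20b-5p at 0.641 ± 0.589. The group means followed the same order in the other 2 groups. In the controls the ranges of miR-92b-3p and miR-106b-5p overlapped; all other neighbours in the order were apart. These are shares of reads, and cloning efficiency can differ between miRNAs.

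**Figure D1:**
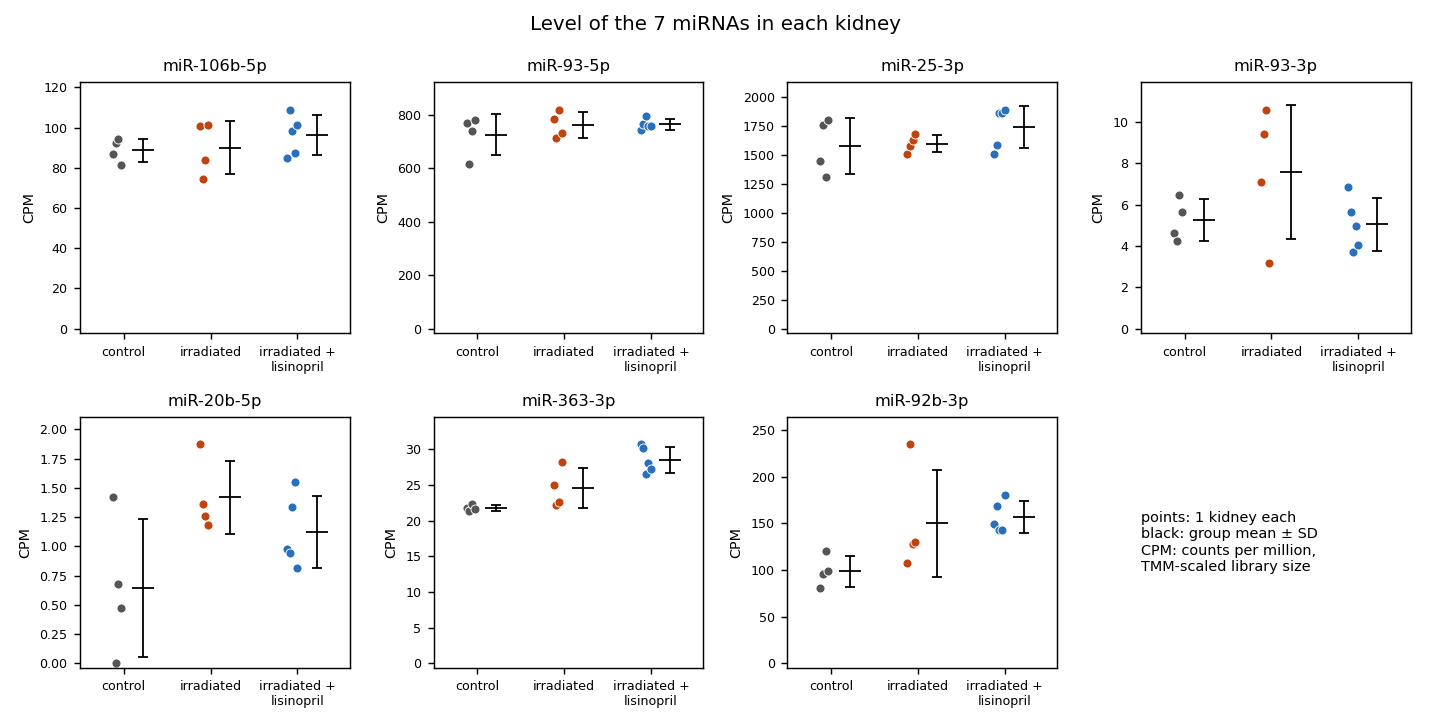
Level in CPM (vertical axes, linear) of each of the 7 miRNAs in kidneys of the 4 control, 4 irradiated and 5 irradiated, lisinopril-treated rats; points are single kidneys and black marks are group means ± SD. miR-363-3p lay between 21.3 and 22.4 CPM in the controls and between 26.6 and 30.7 CPM in the lisinopril libraries, while miR-93-5p lay between 616 and 819 CPM in all 13.

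Of the Mcm7 cluster, miR-25-3p gave the most reads and ranked at 48 of 460 rat miRNAs by mean level. rno-miR-25-3p was at 1447, 1757, 1307 and 1799 CPM in control libraries 1 to 4. Levels were 1503, 1578, 1632 and 1679 CPM in irradiated libraries 1 to 4, and 1506, 1582, 1859, 1863 and 1890.0 CPM in lisinopril libraries 1 to 5. The irradiated libraries fell inside the range of the controls, and 3 of 5 lisinopril libraries lay above it. The log2 fold change of irradiated against control kidneys was 0.02 (95% interval -0.24 to 0.28, adjusted p = 0.952), the upper end being a 1.22-fold rise.

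miR-93-5p, the main source of its seed in these libraries, had the smallest spread of the 7 within groups. rno-miR-93-5p stood at 768, 616, 739 and 780.2 CPM in control libraries 1 to 4, the lowest value being that of the shallow control library 2. In irradiated libraries 1 to 4 it was 785, 714, 819 and 733 CPM, and lisinopril libraries 1 to 5 held 744, 765, 797, 757 and 757 CPM. The 3 groups overlapped. The log2 fold change was 0.07 for irradiated against control (interval -0.15 to 0.29, adjusted p = 0.703) and 0.07 for lisinopril-treated against control (-0.14 to 0.28, adjusted p = 0.782). The pooled SD within groups was 0.102 on the log2 CPM scale, smaller than in any of the 37 other tested miRNAs whose mean level was within 2-fold of its own. That value for the median of all 419 was 0.302.

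miR-106b-5p, which has the seed of miR-93-5p, was read far less: the ratio of its counts to those of miR-93-5p was 0.104 to 0.151 in control, 0.103 to 0.138 in irradiated and 0.114 to 0.142 in lisinopril libraries. rno-miR-106b-5p was at 86.7, 92.5, 94.2 and 81.3 CPM in control libraries 1 to 4. The 4 irradiated libraries, in order, held 100.6, 74.6, 84.0 and 101 CPM, and lisinopril libraries 1 to 5 held 84.9, 109, 98.2, 87.3 and 101 CPM. The irradiated rats lay on both sides of the controls: libraries 1 and 4 above all of them, and library 2 below. The log2 fold change was 0.02 for irradiated against control (interval -0.27 to 0.32, adjusted p = 0.946) and 0.12 for lisinopril-treated against control (-0.16 to 0.40, adjusted p = 0.696).

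The proportions of the 3 guides made from the Mcm7 transcript differed between groups by less than the SD between rats. miR-25-3p held 65.7% ± 4.62 of their summed counts in control (n = 4), 65.2% ± 1.88 in irradiated (n = 4) and 66.8% ± 2.20 in lisinopril libraries (n = 5). miR-93-5p held 30.5% ± 4.33, 31.1% ± 1.75 and 29.5% ± 1.92, and miR-106b-5p 3.74% ± 0.551, 3.68% ± 0.522 and 3.71% ± 0.444. From rat to rat the 3 levels were nearly uncorrelated: over the 13 libraries Pearson's r of log2 CPM was 0.05 for miR-106b-5p with miR-93-5p, 0.07 for miR-106b-5p with miR-25-3p and -0.03 for miR-93-5p with miR-25-3p, with Spearman's rho of -0.01, 0.13 and 0.08. These are descriptions over libraries that share their scaling. Each of the 3 levels ranged over at most 1.46-fold, so an r near 0 does not show that they vary independently.

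The passenger arm miR-93-3p was scarce and uneven. It was at 4.64, 4.25, 6.46 and 5.66 CPM in control libraries 1 to 4 (4 to 67 counts). In irradiated rats 1 to 4 it was at 7.10, 9.43, 10.6 and 3.20 CPM (19 to 76 counts), and lisinopril libraries 1 to 5 held 6.87, 5.64, 3.72, 4.95 and 4.06 CPM. Irradiated libraries 1 to 3 were above every other library, and irradiated library 4 was below all of them. The log2 fold change was 0.49 for irradiated against control (SE 0.312, adjusted p = 0.355) and -0.61 for lisinopril-treated against irradiated (SE 0.285, adjusted p = 0.325). Without irradiated library 4 the latter became -0.88 with an adjusted p = 0.0386 by the same edgeR test; 11.0% of all miRNAs tested were called in that fit, against 0% with the library in.

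Counts of the 2 arms of the miR-93 hairpin were compared within each library, where library scaling cancels. The guide arm exceeded the passenger arm 113.5-fold to 163.5-fold in the controls, 75.2-fold to 223-fold in the irradiated and 107-fold to 211-fold in the lisinopril libraries. The mean log2 ratio was 7.07 ± 0.22, 6.77 ± 0.73 and 7.26 ± 0.38. Irradiated against control the difference was -0.30 (two-sided exact permutation test, p = 0.429, adjusted p = 0.702 over 12 ratio tests), within the spread between rats. The other passenger arms of the cluster showed no call either. miR-106b-3p was at 45.7 ± 14.0, 48.6 ± 11.5 and 45.6 ± 3.06 CPM in control, irradiated and lisinopril libraries, and miR-25-5p at 2.90 ± 0.667, 2.99 ± 1.33 and 2.68 ± 0.347 CPM.

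**Figure D2:**
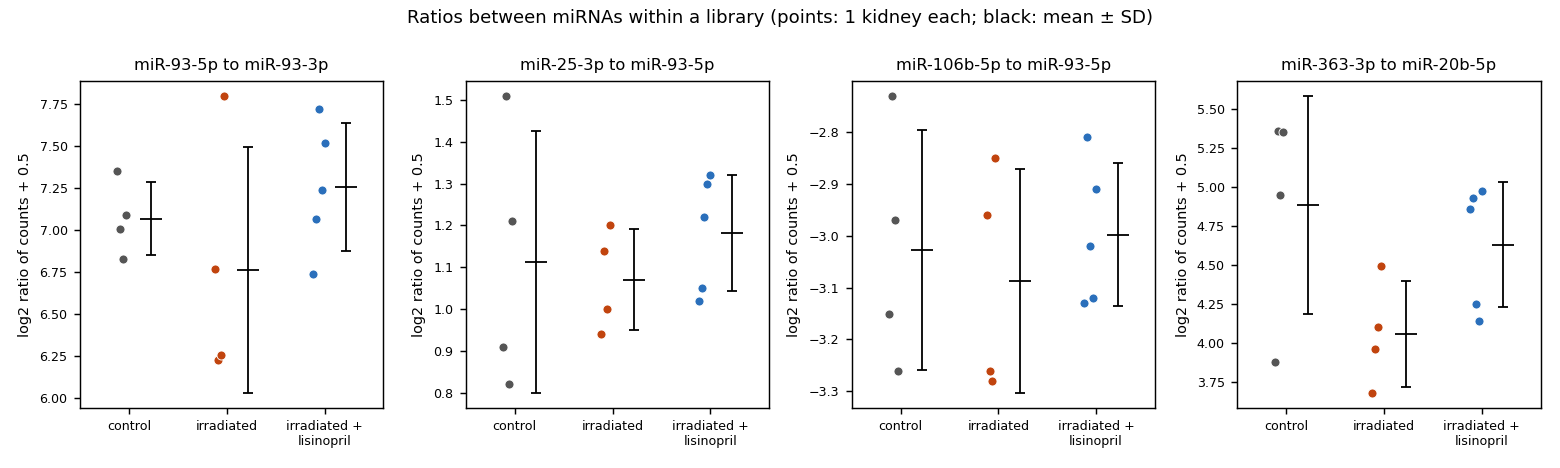
Log2 ratio of counts + 0.5 between 2 miRNAs of the same library (vertical axes) for 4 pairs by group; points are single kidneys and black marks are means ± SD. In irradiated kidneys the ratio of miR-93-5p to miR-93-3p spread from 6.23 to 7.80, against 6.83 to 7.35 in the controls. The control value of 5.36 for miR-363-3p to miR-20b-5p rests on 0 counts of miR-20b-5p and is set by the added 0.5.

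The 4 ratios were tested in the 3 comparisons, 12 tests in all, and 0 passed, the smallest adjusted p being 0.686, with 0 at an unadjusted p under 0.05. The smallest p that these exact permutation tests allow is 0.0286 for 4 against 4 and 0.00794 for 4 against 5. The ratio of miR-25-3p to miR-93-5p differed by -0.05, 0.11 and 0.07 on the log2 scale in irradiated against control, lisinopril-treated against irradiated and lisinopril-treated against control kidneys. For miR-106b-5p to miR-93-5p the differences were -0.06, 0.09 and 0.03.

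miR-20b-5p of the X-linked cluster was near the limit of detection. Its counts were 11, 0, 7 and 4 in control libraries 1 to 4, with the 0 in control library 2 allowing up to 3.19 CPM. Irradiated libraries 1 to 4 held 10, 11, 9 and 7 counts (1.87, 1.36, 1.26 and 1.18 CPM), and lisinopril libraries 1 to 5 held 6, 9, 13, 16 and 7 counts (0.981, 0.940, 1.34, 1.55 and 0.811 CPM). Control library 1, at 1.42 CPM, lay among the irradiated rats. The log2 fold change of irradiated against control was 0.81 (interval -0.04 to 1.66, adjusted p = 0.244) and did not pass. Its pooled SD within groups was 0.656 on the log2 CPM scale, against a median of 0.302 over all 419. The log2 fold change of irradiated against control was 1.34 without control library 1 and 0.54 without control library 4. With no filter on low counts it was 0.82.

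Its cluster partner miR-363-3p, which carries the seed of miR-25-3p, was more abundant and closely grouped. rno-miR-363-3p was at 21.8, 21.3, 22.4 and 21.6 CPM in control libraries 1 to 4. For irradiated libraries 1 to 4 the levels were 25, 22.2, 22.6 and 28.3 CPM, and lisinopril libraries 1 to 5 held 30.7, 30.2, 26.6, 28.1 and 27.2 CPM. All 5 lisinopril libraries were above all controls, and irradiated library 2 lay inside the control range. The group means were 21.7 ± 0.461, 24.5 ± 2.80 and 28.6 ± 1.83 CPM. Against control, the lisinopril-treated kidneys had a log2 fold change of 0.39 (SE 0.128, 1.31-fold, interval 0.12 to 0.66), and its adjusted p = 0.0827 did not pass. It passed in 1 of 22 alternatives, a fit that added miRNAs named after other species (adjusted p = 0.0426, with 8.22% of all called); the highest adjusted p among them was 0.181. For irradiated kidneys without the drug the value was 0.17 (interval -0.12 to 0.46, adjusted p = 0.452), and between the irradiated groups it was 0.22 (-0.05 to 0.49, adjusted p = 0.407). Its pooled SD within groups, 0.106 on the log2 CPM scale, was smaller than in any of the 89 other tested miRNAs within 2-fold of its level. The 20 counts behind the value of control library 2 give it a wider counting error than this spread shows.

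miR-363-3p exceeded its cluster partner miR-20b-5p in counts 14.7-fold to 40.8-fold in 3 control libraries, 12.8-fold to 22.5-fold in irradiated and 17.6-fold to 31.4-fold in lisinopril libraries. Control library 2 had 20 counts of miR-363-3p against 0, which at a limit of 3 counts is at least 6.67-fold. The log2 ratio in lisinopril-treated against irradiated kidneys differed by 0.57 (two-sided exact permutation test, p = 0.0714, adjusted p = 0.686), and the ranges overlapped.

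miR-92b-3p, the third carrier of the seed of miR-25-3p, spread most among the well-read guides. rno-miR-92b-3p was at 80.6, 95.7, 120.9 and 98.6 CPM in control libraries 1 to 4. The irradiated libraries held, from 1 to 4, 107, 235, 128 and 130.4 CPM, and lisinopril libraries 1 to 5 held 149, 169, 143, 143 and 181 CPM. Irradiated library 2 was the highest of all 13, irradiated library 1 overlapped the controls, and all 5 lisinopril libraries were above all controls. Group means were 99.0 ± 16.6, 150.1 ± 57.3 and 157 ± 17.2 CPM.

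The log2 fold change of miR-92b-3p was 0.66 in lisinopril-treated against control kidneys (SE 0.205, 1.58-fold, interval 0.22 to 1.1, adjusted p = 0.0744) and 0.60 in irradiated against control kidneys (SE 0.214, 1.52-fold, interval 0.14 to 1.06, adjusted p = 0.107). Neither passed, and both rest on the same 4 controls. The lisinopril comparison crossed the threshold in 4 of 22 alternatives: with DESeq2 (adjusted p = 0.0478), in a fit of only these 2 groups (0.0144), without control library 3 (0.0438) and without irradiated library 2 (0.0102). Of all miRNAs tested, these called 6.97%, 9.83%, 5.31% and 10.0%. Over the 22 alternatives, adjusted p-values lay between 0.0102 and 0.185. For irradiated against control, leaving out irradiated library 2 reduced the log2 fold change to 0.30 (adjusted p = 0.399). Between the irradiated groups the value was 0.06 (interval -0.37 to 0.49, adjusted p = 0.917). In irradiated library 2 the seed mate miR-92a-3p was high as well, at 10299.5 CPM, while the 3 remaining irradiated rats had 4568 to 6168 CPM, and over the 13 libraries r of miR-92b-3p with miR-92a-3p was 0.71 (rho 0.58).

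Markers of other cells that whole kidney can hold were read beside these values. The summed level of 4 erythroid miRNAs (miR-451, the arms of miR-144, and miR-486) was 918 to 2104 CPM in control, 789.7 to 4229 in irradiated and 674 to 3491 in lisinopril libraries. That of 6 leukocyte miRNAs was 1818 to 2274, 1630.4 to 1921 and 1289.9 to 1780.4 CPM. The 10 miRNAs of kidney epithelium summed to 435164 to 746226 CPM in control, 353829 to 487675 in irradiated and 450249.6 to 581181 in lisinopril libraries, and 2 endothelial miRNAs to 11645 to 14615, 8536 to 14043 and 10146 to 15599 CPM. For 4 smooth muscle and fibroblast miRNAs the sums were 28406 to 40395, 32691 to 38155 and 27366 to 55436 CPM. No marker had 0 counts over all libraries, and edgeR called 0 of these markers in the 3 comparisons, against 1.67%, 0% and 6.21% of all. In irradiated against control kidneys, 3 of 6 leukocyte miRNAs (median log2 fold change -0.58), 3 of 10 epithelial (-0.21) and 1 of 4 smooth muscle and fibroblast miRNAs (0.09) were at an unadjusted p under 0.05, against 22.2% of all. In lisinopril-treated against control kidneys these counts were 3 of 6 (-0.31), 1 of 10 (-0.08) and 1 of 4 (0.24), against 22.7%. Of the 6 leukocyte miRNAs, 5 were negative and 1 positive in both comparisons. Of all 419, 202 were negative in the first and 180 in the second. Lisinopril-treated against irradiated, the counts were 0 of 6 (0.11), 3 of 10 (0.16) and 1 of 4 (0.03), with 1 of 2 endothelial miRNAs (0.28), against 15.0%. The part of these cells in the levels of miR-92b-3p and miR-363-3p was not tested.

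In irradiated against control kidneys, the comparison that asks about radiation without the drug at 35 days, edgeR called 0 of the 7 (1.67% of all). At an unadjusted p under 0.05 there was 1 of the 7 (miR-92b-3p), against 22.2% of all. DESeq2 and limma-voom called 0 of the 7, against 5.90% and 1.67% of all they tested. None of the 7 separated the groups without overlap, as 7.16% of all did. All 7 log2 fold changes were positive, as were 217 of all 419. They ran from 0.02 to 0.81, with a median of 0.17 beside 0.02 for all. The largest was that of miR-20b-5p, which passed the filter only with the irradiated libraries counted. The signs of miR-106b-5p and miR-25-3p turned when single libraries were left out.

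Between irradiated kidneys with and without lisinopril, which asks what the drug adds, edgeR called 0 of the 7 and 0% of all 419. None was at an unadjusted p under 0.05 (15.0% of all). DESeq2 and limma-voom called 0 of the 7, against 2.76% and 0.477% of all. None separated the groups, as 4.30% of all did. The log2 fold changes had a median of 0.06 beside -0.02 for all. Of the 7, 5 were positive and 2 negative, beside 195 and 224 of all 419. Scaling libraries by their totals moved the median of all miRNAs to -0.21. The values of miR-106b-5p (-0.08), miR-93-5p (-0.19), miR-25-3p (-0.07) and miR-92b-3p (-0.14) were then negative too.

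In lisinopril-treated irradiated against control kidneys, edgeR called 0 of the 7 (6.21% of all). miR-92b-3p and miR-363-3p were the 2 at an unadjusted p under 0.05 (22.7% of all) and the 2 that separated the groups without overlap (13.4% of all in either direction); DESeq2 called 1, miR-92b-3p (6.97% of all), and limma-voom 0 (4.77% of all). The median log2 fold change was 0.14 beside 0.05 for all. This comparison shares its controls with the first.

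**Figure D3:**
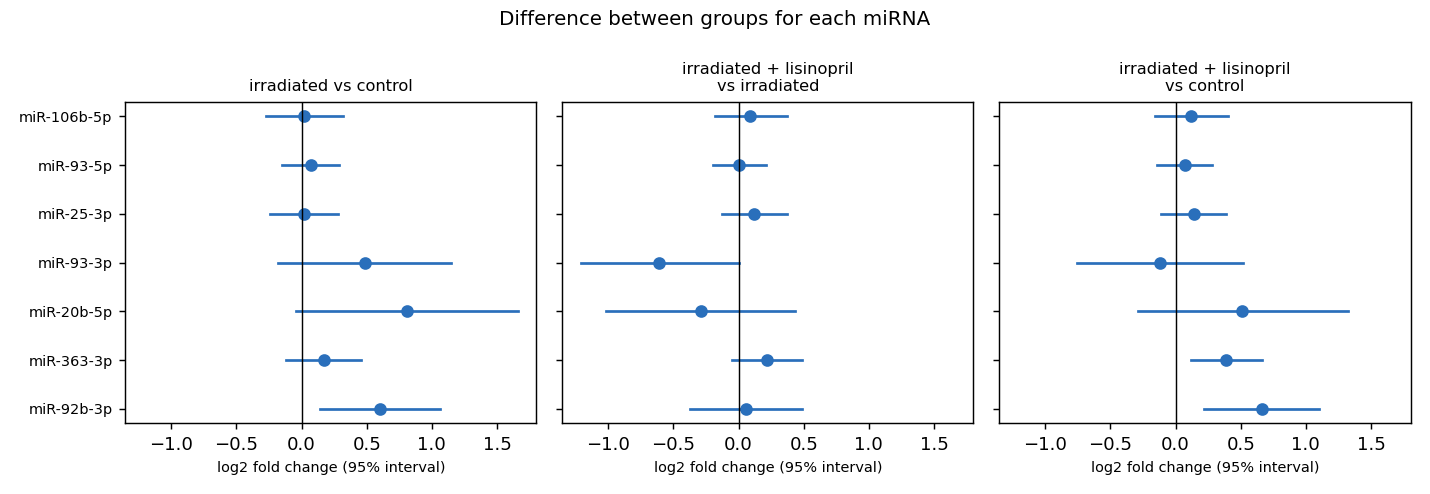
Log2 fold change (horizontal axis) of the 7 miRNAs with its 95% interval from edgeR's quasi-likelihood fit, in the 3 comparisons; the vertical line marks no difference. Intervals lie above 0 for miR-92b-3p against control in both irradiated groups and for miR-363-3p in lisinopril-treated against control kidneys, before adjustment for 419 tests.

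Within the seed group of miR-93-5p, 5 measured rat miRNAs shared the seed, and miR-93-5p, miR-106b-5p and miR-20b-5p supplied 81.3% ± 2.92 of the group's counts in control, 83.8% ± 1.69 in irradiated and 82.5% ± 1.29 in lisinopril libraries. miR-93-5p alone gave 72.4% ± 3.73, 74.8% ± 2.59 and 73.2% ± 1.78, and miR-20b-5p at most 0.176% in any library. miR-17-5p followed with 12.5% ± 2.66, 10.5% ± 0.680 and 11.1% (9.64% to 12.5%). The whole seed group summed to 913 to 1058 CPM in control, 939 to 1060.2 in irradiated and 993 to 1089.5 CPM in lisinopril libraries.

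The seed group of miR-25-3p, also of 5 measured miRNAs, was led by a miRNA outside the 7. miR-92a-3p held 71.3% ± 2.10 of its counts in control, 77.8% ± 5.74 in irradiated and 74.1% ± 4.48 in lisinopril libraries. miR-25-3p, miR-92b-3p and miR-363-3p together held 28.0% ± 1.97, 21.8% ± 5.50 and 25.3% ± 4.32. miR-25-3p itself held 26.0% ± 2.20, 19.7% ± 5.33 and 22.9% ± 4.04, with its lowest share, 13.0%, in irradiated library 2, where miR-92a-3p was highest. miR-92b-3p held 1.64% ± 0.335, 1.74% ± 0.295 and 2.06% ± 0.374, so its share of the seed group overlapped between all groups. The fifth, miR-32-5p, held 0.684% ± 0.210, 0.437% ± 0.293 and 0.555% ± 0.170. These shares were not tested.

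**Figure D4:**
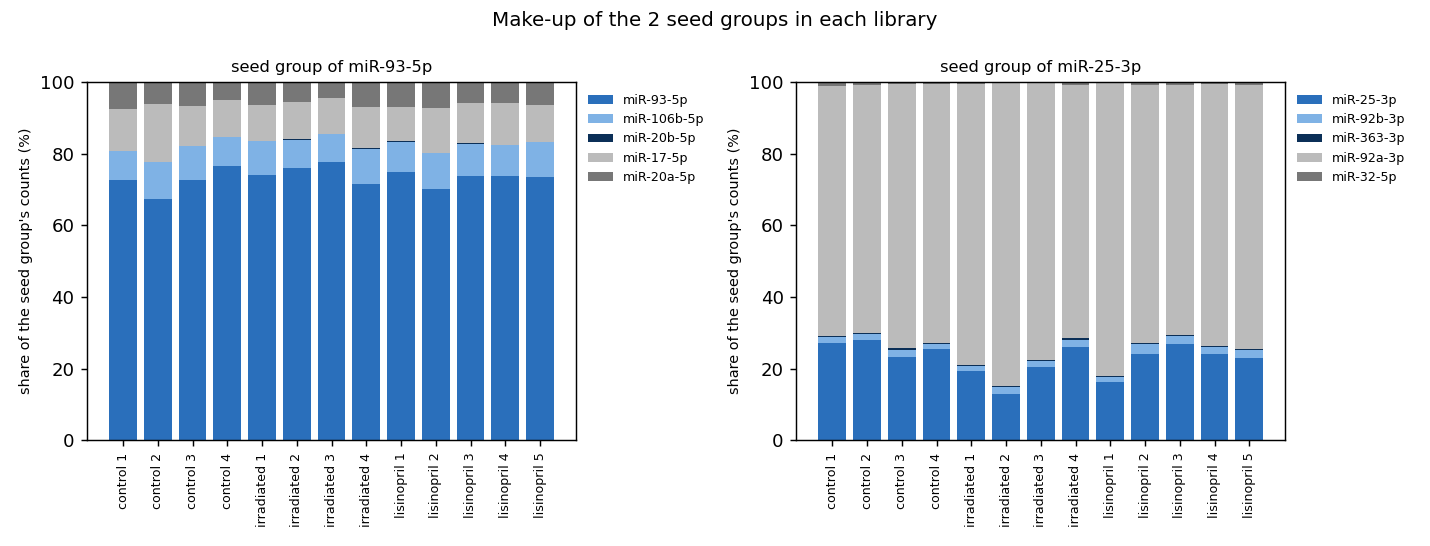
Share in percent (vertical axis) of each miRNA in the counts of the 2 seed groups, by library (bars); blue parts are among the 7 miRNAs described and grey parts are other miRNAs of the same seed. miR-93-5p fills 67.5% to 77.6% of its group in every library, while miR-25-3p ranges from 13.0% to 28.1% of its own.

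The wider family, fixed as a list of the miR-17-92 cluster and the remaining arms of the paralogous clusters, held 14 measured miRNAs, of which 12 were tested. edgeR called 0 of 12 in each of the 3 comparisons, against 1.67%, 0% and 6.21% of all. At an unadjusted p under 0.05 there were 3, 0 and 2, against 22.2%, 15.0% and 22.7% of all. Those of irradiated against control kidneys were miR-19a-3p (-1.18 on the log2 scale), miR-19b-3p (-0.98) and miR-92a-3p (0.65). Those of lisinopril-treated against control kidneys were miR-19a-3p (-1.01) and miR-19b-3p (-0.83). Both miR-19 miRNAs were highest in the shallow control library 2. In control libraries 1 to 4, miR-19a-3p was at 36.7, 104, 20.4 and 17.8 CPM and miR-19b-3p at 347, 698, 202 and 205 CPM. Irradiated libraries held 12.8 to 29.3 and 136 to 261 CPM of the 2, and lisinopril libraries 16.2 to 23.8 and 166 to 237.5 CPM. Median log2 fold changes of the 12 were 0.01, 0.06 and -0.02, beside 0.02, -0.02 and 0.05 for all 419. Of the seed mates, miR-17-5p was at 124 ± 18.8, 106.5 ± 7.43 and 116 ± 15.5 CPM in control, irradiated and lisinopril libraries, and miR-20a-5p at 62.1 ± 12.9, 58.9 ± 11.5 and 66.5 ± 7.36 CPM. miR-92a-3p was at 4338 ± 578, 6787 ± 2456 and 5785 ± 1190.5 CPM.

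The miRNAs whose log2 CPM ran closest to each of the 7 over the 13 libraries were taken by Pearson's r, as a description over libraries that share scaling and groups. For miR-92b-3p these were miR-214-3p (r = 0.90, rho = 0.81), miR-1247-5p (0.87, 0.79) and miR-652-3p (0.87, 0.74). For miR-363-3p they were miR-196a-5p (0.84, 0.79), miR-301a-5p (0.82, 0.76) and miR-9b-3p (0.81, 0.80), and for miR-106b-5p miR-15b-5p (0.77, 0.74), miR-195-5p (0.75, 0.68) and miR-18a-5p (0.75, 0.72). For miR-25-3p they were miR-1843-5p (0.86, 0.87), miR-148b-3p (0.82, 0.72) and miR-30e-3p (0.80, 0.70). miR-93-3p ran with miR-328a-3p (0.88, 0.85), miR-149-5p (0.87, 0.92) and miR-30c-5p (0.87, 0.89) and not with its own guide arm (0.24, 0.18). For miR-93-5p the nearest were miR-103-3p (0.85, 0.66), miR-376c-3p (0.84, 0.63) and miR-34b-5p (0.83, 0.36), and for miR-20b-5p miR-129-2-3p (0.87, 0.71), miR-196c-3p (0.85, 0.65) and miR-490-3p (0.85, 0.48). Among the 7 themselves the 21 pairs had r from -0.56 (miR-106b-5p with miR-93-3p) to 0.75 (miR-93-5p with miR-20b-5p, rho 0.34). miR-93-5p and miR-20b-5p were both lowest in the shallow control library 2, where miR-20b-5p had 0 counts. How far that library sets the r values of these 2 miRNAs was not tested.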

How the data were processed

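Small RNA libraries were made from kidney RNA with a TruSeq small RNA kit, per the labels' protocols. Per the submitters' processing notes, the tools were Trim Galore 0.2.5 and Bowtie 1.1.1 and the build was rn4; the sources used here do not say how reads were assigned to miRNAs. The table the authors deposited holds raw counts per feature for 13 libraries, and 460 rat mature miRNAs were used of 1121 features. Groups follow the group name in the labels, which give no batch or pairing.

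With edgeR 4.0.16 in R 4.3.3, filterByExpr by group left 419 miRNAs, TMM factors were 0.787 to 1.19, and the quasi-likelihood fit used all 13 libraries with 3 group means. The Benjamini-Hochberg adjustment ran over all 419. Log2 CPM values add a prior count of 2. Standard errors were derived as the absolute log2 fold change divided by the square root of the test's F statistic. Intervals are 95% and use these and the fit's degrees of freedom. Ratios within a library add 0.5 counts and were tested by two-sided exact permutation. Within groups, no pair of libraries had counts as alike as 1 library sequenced again: their chi-square per degree of freedom was 84.8 or more. This cannot show whether 2 libraries came from the same RNA, and pairs across groups were not compared. The labels describe separate rats. The procedure was tested on simulated counts. Alternatives used DESeq2 1.42.0 and limma 3.58.1, among others. Reads carry no molecular identifiers.

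The members and lists were chosen with earlier results of these data known. miRNAs were named by this rule: the 7 members, relatives that share a seed or hairpin with them or were called, and the 3 miRNAs most correlated with each member. Marker miRNAs come from the lists; miR-32-5p, miR-19a-3p, miR-19b-3p and oan-miR-92b were named after their values were seen. Names of 414 of 460 rat miRNAs, including all 7, matched a RefSeq mature sequence (GRCr8).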

Additional observations from a re-analysis of the deposited data

Results flagged for a closer look

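Outside the rat miRNAs, the table lists oan-miR-92b, a miRNA named after platypus miR-92b, at levels above the controls in all 5 lisinopril libraries; it was picked after its values were seen. Control libraries 1 to 4 held 1, 1, 3 and 5 of its counts. The irradiated ones held 4, 13, 6 and 1, and with lisinopril there were 14, 20, 18, 31 and 22. In a fit of rat plus other-species miRNAs the median with lisinopril was 2.04 CPM, and all 5 lisinopril libraries (1.67 to 2.68 CPM) lay above all controls (0.112 to 0.813 CPM) and all irradiated libraries (0.149 to 1.44 CPM). Among the 419 rat miRNAs of the main fit, 5.97% had all lisinopril libraries above all controls. Between lisinopril and irradiated libraries, 4.30% of the 419 had no overlap in either direction. These shares over the 572 miRNAs of the wider fit are not given. The level worth 3 counts, the limit for a count of 0, was 2.44 CPM in control library 2, above 4 of the 5 lisinopril values. That library held 1 count, which allows a higher level still. This limit covers counting error only. By edgeR's quasi-likelihood test over 572 miRNAs the log2 fold change was 2.65 for lisinopril-treated against control (adjusted p = 0.00978), 1.44 for lisinopril-treated against irradiated (adjusted p = 0.230) and 1.20 for irradiated against control (adjusted p = 0.254). Of the 572, 47 (8.22%), 0 and 1 were called in these 3 comparisons. oan-miR-92b passed the filter on low counts only through the lisinopril libraries, where it was high, and was picked for that height. Its adjusted p-values are therefore no independent support for a difference. Which rat reads the oan-miR-92b entry holds, and its relation to miR-92b-3p, was not tested. A check for single kidneys far from the rest of their group, over 33 groups of values of the 7 miRNAs and their ratios, picked out 0, where chance gives about 1 in 20.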

How the results depend on the processing

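No paired analysis was possible because the labels do not pair rats across groups by number. The alternatives were 9 other settings, 1 of them (adding other-species miRNAs) chosen after seeing the data, and leaving out each of 13 libraries. For single members, 421 values kept their direction and side of the threshold, 22 changed sign and 6 newly passed; for ratios 160 kept both and 8 changed sign. The cause of each change was not tested.

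Irradiated against control, all miRNAs called higher and lower were 2 and 5. DESeq2 gave 11 and 13, a fit of only these 2 groups 1 and 0, adding other-species miRNAs 1 and 0, and library totals 0 lower. Lisinopril-treated against irradiated, 0 and 0 became 4 and 5 with DESeq2, and 2 lower with DESeq2's size factors, library totals, a mean of at least 10 CPM or limma-voom. Lisinopril-treated against control, 3 and 23 became 6 higher without a filter and with DESeq2, 17 higher in the fit of 2 groups, 15 lower at a mean of at least 10 CPM, and 10 and 37 with other-species miRNAs. The members called higher there were 1 with DESeq2, 1 in the fit of 2 groups and 1 with other-species miRNAs, in place of 0.

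Leaving out single libraries gave 1 to 35 higher and 0 to 25 lower for irradiated against control, 0 to 20 and 0 to 27 (members lower 0 to 1) for lisinopril-treated against irradiated, and 2 to 17 and 11 to 27 (members higher 0 to 1) for lisinopril-treated against control; the values 35, 25, 20 and 27 for the first 2 comparisons came without irradiated library 4, and 17 came without irradiated library 2.

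Between the irradiated groups, the log2 fold change of miR-93-5p turned to -0.02 with DESeq2's size factors and with DESeq2, -0.03 at a mean of at least 10 CPM and -0.0044 in the fit of 2 groups. With library totals it was -0.19, and miR-106b-5p had -0.08, miR-25-3p -0.07 and miR-92b-3p -0.14. The difference in log2 ratio of miR-363-3p to miR-20b-5p in lisinopril-treated against control kidneys turned from -0.26 to 0.22 with 2 counts added in place of 0.5. Leaving out libraries, irradiated against control ranged from -0.04 to 0.11 for miR-106b-5p and -0.07 to 0.08 for miR-25-3p. Lisinopril-treated against irradiated ranged from -0.04 to 0.03 for miR-93-5p and -0.11 to 0.35 for miR-92b-3p, and lisinopril-treated against control from -0.25 to 0.02 for miR-93-3p. The ratio of miR-25-3p to miR-93-5p ranged from -0.14 to 0.09 and from -0.03 to 0.20 against control in the irradiated and lisinopril-treated rats, and that of miR-106b-5p to miR-93-5p from -0.14 to 0.04 and from -0.05 to 0.13. Counts were lowest for miR-20b-5p and miR-93-3p, above all in control library 2. At a mean of at least 10 CPM neither had a value, miR-20b-5p also had none in the fits of 2 groups and without lisinopril library 4, and DESeq2 gave it none between the irradiated groups.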

Other observations

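Among the predicted windows of the table, named by the authors with rn4 coordinates, 2 carried counts close to those of a member. The window on chromosome 12 from 17608366 to 17608478 had 81.6% to 95.9% as many counts as miR-106b-5p, library by library, and the window on chromosome 2 from 181395394 to 181395538 had 79.1% to 85.9% as many as miR-92b-3p. Whether the same reads were counted in both was not tested. They were picked by how closely they ran with a member (SD of the log2 difference 0.0599 and 0.0337) and are no independent measurement.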
